A study of Mus musculus with 12 samples.

Results

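The genes described here are 37 genes of the endoplasmic reticulum (ER) that fold, modify, inspect and export secreted proteins, measured by RNA sequencing of mouse liver. They were taken by gene symbol from the deposited table, where all 37 were found among 15846 genes, and all 37 passed the filter on low counts that left 14736 genes for testing. By role they were 9 chaperones of the HSP70 and HSP90 families with their co-factors, 2 lectin chaperones and 7 disulfide and prolyl isomerases or oxidases. The others were 3 sensors and factors of the unfolded protein response (UPR), 8 genes of ER-associated degradation (ERAD), 7 of protein translocation and signal peptide removal, and 1 subunit of the COPII vesicle coat.

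Livers came from 12 C57BL/6 mice aged 5 months, 3 in each of 4 groups. The groups were wild type (WT) fed chow, WT fed the diet that the labels call HFCF, and the hepatocyte knockout that the labels call Shp Hep-/- (KO) fed chow or HFCF. Shp is the gene Nr0b2, which encodes a nuclear receptor that lacks a DNA-binding domain and represses transcription through partner proteins. The labels do not say which Cre driver made the deletion, how long the diet was fed, or the sex of the mice. Nr0b2 stood at 22.4 to 53.4 CPM (gene counts scaled to a common library size) in the 6 WT livers and at 0.21 to 1.01 CPM in the 6 KO livers. KO against WT, its log2 fold change was -5.44 for chow (edgeR adjusted p = 1.7e-07) and -7.05 for HFCF (edgeR adjusted p = 3.37e-08).

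Hepatocytes release large amounts of albumin, clotting factors and lipoproteins, and the ER is where these proteins are made and folded. Proteins enter the ER through the Sec61 channel, are bound by chaperones such as BiP (the product of Hspa5) and calreticulin, gain disulfide bonds through protein disulfide isomerases, and leave in COPII vesicles. When unfolded proteins build up, the sensors IRE1 (Ern1), PERK and ATF6 start the UPR, in which ATF6 and the spliced form of XBP1 raise transcription of chaperone and ERAD genes.

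ATF6 acts with the factor NF-Y through a promoter sequence called the ER stress response element (ERSE), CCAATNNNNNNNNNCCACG, which was itself first defined in chaperone promoters. A RefSeq promoter (GRCm38.p6) could be matched for 30 of the 37 genes, and the 250 bases upstream of each start were searched on both strands for exact matches. The ERSE was found in 10 of the 30 promoters (33.3%), against 37 of 32851 mouse promoters (0.113%). The RefSeq start of Hspa5 lies 120 bases inside the deposited gene, so the Hspa5 match is upstream of that start but within the deposited gene. These matches are shown because they mark which of the 37 genes carry the element, and capitals mark the match, printed on the strand on which it reads 5′ to 3′ with 5 bases on each side.
Hspa5, chr2:34772020-34772048, plus strand: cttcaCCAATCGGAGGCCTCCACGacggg
Hsp90b1, far copy, chr10:86705633-86705661, minus strand: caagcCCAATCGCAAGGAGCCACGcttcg
Hsp90b1, near copy, chr10:86705528-86705556, plus strand: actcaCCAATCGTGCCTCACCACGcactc
Dnajc3, chr14:118937822-118937850, plus strand: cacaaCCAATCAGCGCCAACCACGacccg
Creld2, chr15:88819515-88819543, minus strand: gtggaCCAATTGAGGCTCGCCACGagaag
Calr, chr8:84847070-84847098, plus strand: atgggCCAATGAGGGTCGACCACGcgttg
Canx, chr11:50325795-50325823, minus strand: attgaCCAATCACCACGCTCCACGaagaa
Pdia6, chr12:17266486-17266514, plus strand: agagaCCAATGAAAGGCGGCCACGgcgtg
Ero1lb, chr13:12565677-12565705, minus strand: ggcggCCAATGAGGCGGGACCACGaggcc
Derl3, chr10:75893237-75893265, minus strand: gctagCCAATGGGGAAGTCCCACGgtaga
Syvn1, chr19:6046527-6046555, plus strand: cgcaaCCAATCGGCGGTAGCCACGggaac
Herpud1 carried the shorter variant called ERSE-II, ATTGGNCCACG, which occurred in 1 of the 30 promoters and in 0.0304% of all mouse promoters.
Herpud1, chr8:94386372-94386392, plus strand: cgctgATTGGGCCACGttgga

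**Figure D1:**
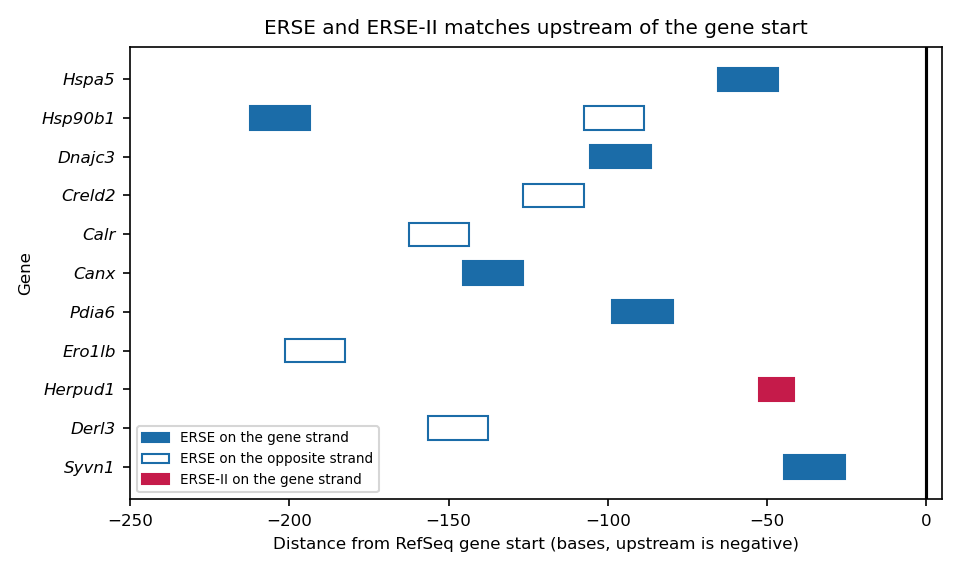
Position of each ERSE (blue) and ERSE-II (red) match, in bases upstream of the RefSeq gene start; filled bars lie on the strand of the gene and open bars on the opposite strand. The matches lie between 212 and 26 bases upstream, and Hsp90b1 carries 2.

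Other short elements were looked for in the same 250 bases. The UPR element TGACGTGG was present upstream of Sec24d and of no other matched gene, against 0.563% of all mouse promoters, and the cyclic AMP response element TGACGTCA was found in 0 of 30 (1.55% of all promoters). The CCAAT box was present in 23 of 30 (76.7%, against 33.8% of all promoters) and the CCACG core in 22 of 30 (73.3%, against 28.3%). Both are parts of the ERSE and the ERSE-II, so these counts overlap with those above. A match is a run of letters and not a measured binding site.

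Libraries held 13967116 to 18324134 counts. In what follows, levels are CPM scaled with TMM factors, listed for replicates 1, 2 and 3 of a group in that order, and ± after CPM is the SD over 3 livers. After a log2 fold change, ± gives a standard error derived from edgeR's quasi-likelihood test. It is the size of the fold change over the square root of the F statistic. Calls are Benjamini-Hochberg adjusted p-values below 0.05 over all 14736 genes. Counts at an unadjusted p under 0.05 stand without a share over all tested genes, which was not counted, so no excess is read from them. The labels give no more than that the 3 livers of a group are separate samples. The p-values set a difference between groups against the spread between livers, estimated over all 4 groups and with information shared across genes. In bulk liver, fewer cells of a type and less RNA per cell cannot be told apart.

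In WT livers the HFCF diet went with lower chaperone and translocation genes. Of the 37 genes, 14 fell and 0 rose, where 13.7% of all tested genes were called, 5.9% down and 7.76% up. The median log2 fold change of the 37 was -0.27, against -0.0033 over all tested genes, and 33 of the 37 values were negative. In 19 of the 37 all 3 HFCF livers lay below all 3 chow livers, as in 15.3% of all tested genes. Leaving out WT chow replicate 1 left 5 that fell and 1 that rose, Edem1 (0.33 ± 0.09 on the log2 scale, edgeR adjusted p = 0.0363). The number that fell was 6 with WT chow replicate 2 left out, 5 with WT HFCF replicate 1 left out and 8 with WT HFCF replicate 2 left out.

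In KO livers the same diet comparison gave 1 gene that rose, Calr, and 0 that fell, where 2.65% of all tested genes were called (1.47% up and 1.18% down). At an unadjusted p under 0.05, 9 were higher and 2 lower. DESeq2 called 4 of the 37, Calr, Pdia3, Pdia4 and Herpud1, the last of which fell. The median of the 37 was 0.06 and 26 values were positive. All 3 HFCF livers lay above all 3 chow livers in 8 of the 37 (13.1% of all tested genes) and below them in 2 (11.3%). The comparison rests on few calls over the whole table, and the count moved between 0 and 3 when single libraries were left out.

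**Figure D2:**
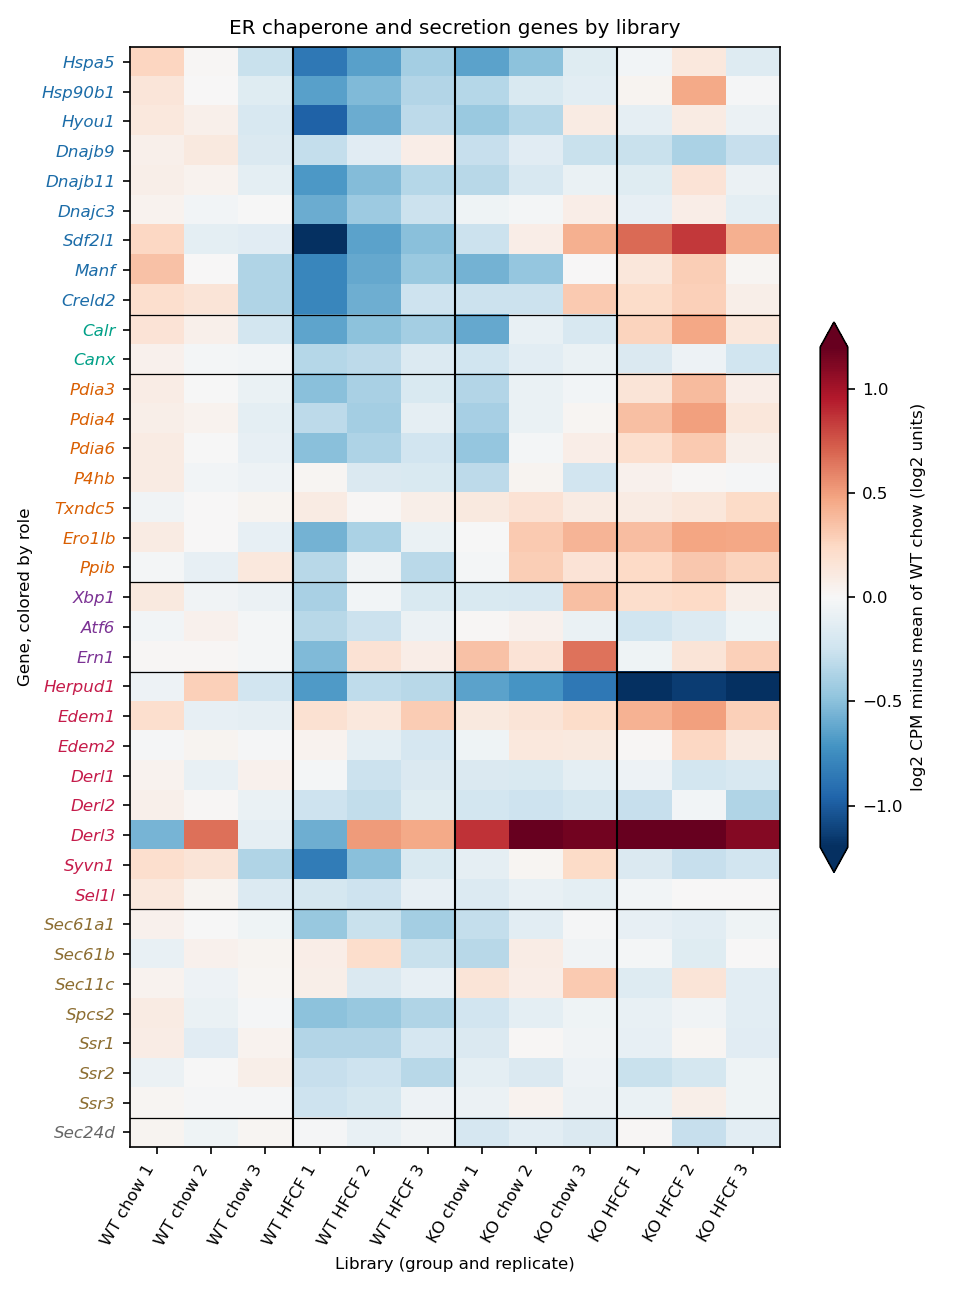
Level of each of the 37 genes (rows, colored by role) in each of the 12 livers (columns), as log2 CPM minus the mean of WT chow; blue is lower and red is higher. Most rows in the chaperone and isomerase blocks are blue in the 3 WT HFCF livers and pale or red in the 3 KO HFCF livers, while Herpud1 is blue in all KO livers.

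Between genotypes on HFCF, 17 of the 37 genes were higher in KO and 1, Herpud1, was lower, where 19.1% of all tested genes were called, 10.6% higher and 8.52% lower. The median was 0.26, against 0.02 over all tested genes, and 32 values were positive. All 3 KO livers lay above all 3 WT livers in 21 of the 37 (18.5% of all tested genes) and below them in 1 (15.7%). On chow, 1 gene was higher in KO, Derl3, and 1 was lower, Herpud1, where 15.5% of all tested genes were called (9.72% higher and 5.82% lower), and the median of the 37 was -0.12. The diet comparison in WT and the genotype comparison on HFCF share the 3 WT HFCF livers, so a low level in those livers enters both.

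BiP, the HSP70 chaperone that binds newly entered chains and holds the UPR sensors inactive, is encoded by Hspa5 (chromosome 2, 34771970 to 34776531, plus strand). Hspa5 measured 1001, 845.4 and 696.1 CPM in the WT chow and 462.1, 534.7 and 633.2 CPM in the WT HFCF livers. In KO livers it stood at 537.3, 595.1 and 760 CPM on chow and at 821.3, 914.4 and 753.5 CPM on HFCF. All WT HFCF livers lay below all WT chow and all KO HFCF livers, whereas KO chow and KO HFCF livers overlapped. The log2 fold change with HFCF was -0.64 ± 0.16 in WT (edgeR adjusted p = 0.0167) and 0.40 ± 0.16 in KO (edgeR adjusted p = 0.201). KO against WT gave 0.61 ± 0.16 on HFCF (edgeR adjusted p = 0.0147) and -0.43 ± 0.16 on chow (edgeR adjusted p = 0.0814). On chow the difference passed with DESeq2 (adjusted p = 0.0359) and when KO chow replicate 3 was left out (-0.58, edgeR adjusted p = 0.0355). The call in WT was lost without WT chow replicate 1 (edgeR adjusted p = 0.082) or WT HFCF replicate 1 (0.0632), and that on HFCF without WT HFCF replicate 1 (0.051) or KO HFCF replicate 2 (0.0746).

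Hsp90b1 encodes GRP94, the HSP90 of the ER, which completes the folding of a limited set of clients. It measured 931.1, 841.8 and 761.1 CPM in the WT chow and 535.4, 583.5 and 661.3 CPM in the WT HFCF livers. KO livers held 662, 743.3 and 770.7 CPM on chow and 860.7, 1157 and 831.2 CPM on HFCF. The groups of one genotype did not overlap between diets, with HFCF lower in WT and higher in KO. Hsp90b1 fell by 0.51 ± 0.13 on the log2 scale in WT (edgeR adjusted p = 0.0204) and was 0.68 ± 0.13 higher in KO than in WT on HFCF (edgeR adjusted p = 0.00273). The 0.39 ± 0.13 in KO did not pass (edgeR adjusted p = 0.126). The fall in WT was not called without WT chow replicate 1 (edgeR adjusted p = 0.0926), WT chow replicate 2 (0.0562), WT HFCF replicate 1 (0.0727) or WT HFCF replicate 2 (0.0584).

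Of the 9 chaperones and co-factors, 7 fell with HFCF in WT (5.9% of all tested genes fell), all but Creld2 and Dnajb9. On HFCF 8 were higher in KO than in WT (10.6% of all tested genes), and 0 were called by edgeR for the diet in KO or for the genotype on chow. At an unadjusted p under 0.05, 4 were higher with the diet in KO and 2 lower in KO on chow. Hyou1, a large HSP70-like protein that exchanges nucleotide on BiP, stood at 179.3, 170.7 and 143.3 CPM in WT chow and at 83.3, 108.4 and 132 CPM in WT HFCF livers. Dnajb11, a J-domain protein that hands clients to BiP, stood at 95.8, 94.4 and 84.4 CPM in WT chow and at 56.8, 63.6 and 71.9 CPM in WT HFCF livers. Neither gene's WT groups overlapped. Dnajb11 fell by 0.51 ± 0.10 on the log2 scale (edgeR adjusted p = 0.00621) and Hyou1 by 0.61 ± 0.16 (edgeR adjusted p = 0.0254). On HFCF the KO livers held 82.8, 102.4 and 87 CPM of Dnajb11, which was 0.50 ± 0.10 higher than in WT (edgeR adjusted p = 0.00447). For Hyou1 they held 152, 175.4 and 155.5 CPM, 0.58 ± 0.16 higher than in WT (edgeR adjusted p = 0.0236). The Dnajb11 calls in these comparisons held without each library in turn. The Hyou1 fall was lost without WT chow replicate 1 (edgeR adjusted p = 0.0957) or 2 (0.0753) and without WT HFCF replicate 1 (0.0887) or 2 (0.0636). Its genotype call on HFCF was lost without WT HFCF replicate 1 (0.0775) or 2 (0.064) and without KO HFCF replicate 2 (0.101) or 3 (0.0564).

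Sdf2l1, a partner of the J-domain proteins of the ER, had the widest range among the chaperone genes at a low level. It measured 13.2, 10.3 and 10.1 CPM in WT chow, 3.47, 7.09 and 7.8 CPM in WT HFCF, 9.3, 11.7 and 14.9 CPM in KO chow and 17.9, 20.1 and 15 CPM in KO HFCF livers. These levels came from 61 to 288 counts per library. The WT HFCF livers were the lowest 3 of the 12 and the KO HFCF livers the highest 3. Sdf2l1 was 1.54 ± 0.25 higher in KO than in WT on HFCF on the log2 scale (edgeR adjusted p = 0.000753), a call that held without each library in turn. It fell by 0.88 ± 0.25 with HFCF in WT (edgeR adjusted p = 0.0342), and the 0.56 ± 0.23 in KO did not pass (edgeR adjusted p = 0.219). The fall was lost in a fit of only those 2 groups (edgeR adjusted p = 0.0673). It was also lost without WT chow replicate 1 (0.129), 2 (0.0601) or 3 (0.0624) and without WT HFCF replicate 1 (0.0978).

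Manf, a small ER protein that is also secreted and that binds BiP, stood at 73.4, 57.7 and 44.7 CPM in WT chow and at 33.4, 37.4 and 42.1 CPM in WT HFCF livers. KO livers held 38.7, 41.5 and 57.7 CPM on chow and 62.9, 70.4 and 58.3 CPM on HFCF. The diets did not overlap in either genotype, and the order of the diets was opposite. Manf fell by 0.64 ± 0.17 on the log2 scale in WT (edgeR adjusted p = 0.0272) and was 0.76 ± 0.17 higher in KO than in WT on HFCF (edgeR adjusted p = 0.00752), while the 0.47 ± 0.17 with the diet in KO was not called (edgeR adjusted p = 0.157). The fall in WT was lost without WT chow replicate 1 (edgeR adjusted p = 0.133) or 2 (0.0642) and without WT HFCF replicate 1 (0.0954) or 2 (0.07).

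Dnajc3, a J-domain protein that also restrains PERK, fell with HFCF in WT by 0.42 ± 0.09 on the log2 scale (edgeR adjusted p = 0.00919). Its WT levels were 371.9, 352.7 and 360.1 CPM on chow and 239.6, 266.4 and 302.9 CPM on HFCF. In KO the diets overlapped, at 348.1, 356.5 and 381.2 CPM on chow and 337.1, 382.2 and 333.4 CPM on HFCF. It was 0.38 ± 0.09 higher in KO than in WT on HFCF (edgeR adjusted p = 0.011), a call lost without KO HFCF replicate 2 (edgeR adjusted p = 0.0771). Creld2, an ER protein with EGF-like repeats, was called for the genotype on HFCF alone, at 0.72 ± 0.18 (edgeR adjusted p = 0.0127), and lost this call when KO HFCF replicate 2 was left out (0.0558). Its levels were 22.6 ± 4.34 CPM in WT HFCF and 37.3 ± 2.82 CPM in KO HFCF livers (SD, n = 3). The log2 fold change of Creld2 with HFCF in WT, -0.55 ± 0.18, missed the threshold (edgeR adjusted p = 0.0629) and passed without WT chow replicate 3 (0.0308), KO chow replicate 3 (0.0322) or WT HFCF replicate 3 (0.0281) and with DESeq2 (adjusted p = 0.0337). Dnajb9, a J-domain protein that keeps IRE1 bound to BiP, was called in none of the comparisons and stood at 31.5 ± 3.26 CPM in WT chow, 29.1 ± 3.73 CPM in WT HFCF, 26.8 ± 1.48 CPM in KO chow and 25.4 ± 1.07 CPM in KO HFCF livers (SD, n = 3).

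The lectin chaperones bind the trimmed sugar of new glycoproteins, Calr as the soluble calreticulin and Canx as the membrane-bound calnexin. Calr (chromosome 8, 84841850 to 84846934, minus strand) stood at 607.2, 567.2 and 465.5 CPM in WT chow and at 350.3, 387.3 and 410.3 CPM in WT HFCF livers. KO livers held 354.7, 509.2 and 474 CPM on chow and 655.1, 751.1 and 597.7 CPM on HFCF. The diets separated fully in each genotype, downward in WT and upward in KO. The log2 fold change with HFCF was -0.51 ± 0.14 in WT (edgeR adjusted p = 0.0262) and 0.58 ± 0.14 in KO (edgeR adjusted p = 0.0421), and KO was 0.80 ± 0.14 above WT on HFCF (edgeR adjusted p = 0.00135). The call on HFCF between genotypes held without each library in turn. The WT call was lost without WT chow replicate 1 (edgeR adjusted p = 0.112) or 2 (0.0816) and without WT HFCF replicate 1 (0.0882) or 2 (0.0621). The KO call was lost without WT chow replicate 2 (0.0556), KO chow replicate 1 (0.164) or 3 (0.0628), WT HFCF replicate 2 (0.0571) and KO HFCF replicate 1 (0.104) or 2 (0.166).

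The 247 bases upstream of Calr that lie outside the deposited gene (GRCm38.p6, chr8:84846935-84847181, minus strand) are shown since Calr was called in 4 of the 5 comparisons. Capitals mark the ERSE, which here reads in reverse complement.
Calr upstream: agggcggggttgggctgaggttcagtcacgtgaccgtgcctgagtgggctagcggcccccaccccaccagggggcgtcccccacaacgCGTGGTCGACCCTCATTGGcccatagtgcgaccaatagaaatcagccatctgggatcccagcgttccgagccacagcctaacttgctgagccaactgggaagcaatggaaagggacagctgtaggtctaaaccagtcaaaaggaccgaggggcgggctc
Canx, which carries an ERSE as well, stood at 643.5, 613.4 and 609.2 CPM in WT chow and at 491.8, 498.8 and 554.6 CPM in WT HFCF livers, with no overlap. It fell by 0.27 ± 0.08 on the log2 scale (edgeR adjusted p = 0.0434) and was not called in the other comparisons. The call was lost under RLE scaling (edgeR adjusted p = 0.0524), in a fit of only those 2 groups (0.0929), and without each of the 3 WT chow livers (0.152, 0.0987 and 0.0843). It was also lost without WT HFCF replicate 1 (0.123) or 2 (0.121), KO chow replicate 2 (0.0539) and each of the 3 KO HFCF livers (0.0633, 0.0525 and 0.0637).

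Of the 7 disulfide and prolyl isomerases or oxidases, 5 were higher in KO than in WT on HFCF (10.6% of all tested genes). These were Pdia3, Pdia4, Pdia6, Ero1lb and Ppib, while P4hb and Txndc5 were not called. In each of the 4 other comparisons, the diet in WT among them, 0 of the 7 were called by edgeR. At an unadjusted p under 0.05, 5 were lower with HFCF in WT, 3 higher with HFCF in KO and 5 positive for the interaction. Pdia4 stood at 305.6, 298.4 and 268.2 CPM in WT chow, 233.6, 218.4 and 270 CPM in WT HFCF, 220.5, 274.7 and 295 CPM in KO chow and 372.6, 409.6 and 319.7 CPM in KO HFCF livers. The 3 KO HFCF livers were the highest of all 12. Pdia4 was 0.61 ± 0.12 higher in KO than in WT on HFCF on the log2 scale (edgeR adjusted p = 0.00361). With the diet in KO it differed by 0.48 ± 0.12 (edgeR adjusted p = 0.0543), a value that passed with limma voom (adjusted p = 0.046) and DESeq2 (adjusted p = 0.00641). That value also passed without KO chow replicate 3 (edgeR adjusted p = 0.047), WT HFCF replicate 1 (0.0413) or 3 (0.0439) or KO HFCF replicate 3 (0.0415).

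Ero1lb encodes an oxidase that recharges the disulfide isomerases. It measured 48.1, 45 and 42.1 CPM in WT chow, 30.4, 34.6 and 42.6 CPM in WT HFCF, 44.7, 56.1 and 59.6 CPM in KO chow and 58.2, 62.5 and 62.3 CPM in KO HFCF livers. The KO HFCF livers lay above all 6 WT livers. Ero1lb was 0.77 ± 0.12 higher in KO than in WT on HFCF (edgeR adjusted p = 0.000726), the lowest adjusted p of the 37 genes in that comparison. Pdia3, which works on glycoproteins held by the lectin chaperones, stood at 180.3, 194.5 and 225.3 CPM in WT HFCF and at 285.1, 333.4 and 270.1 CPM in KO HFCF livers. It differed by 0.57 ± 0.11 (edgeR adjusted p = 0.00319). Pdia6, which also acts on IRE1, stood at 122.2, 133.8 and 148 CPM in WT HFCF and at 199.4, 214.9 and 181.4 CPM in KO HFCF livers, a difference of 0.56 ± 0.12 (edgeR adjusted p = 0.00665). None of these pairs of groups overlapped, and all calls in this paragraph held without each library in turn.

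Pdia3 and Pdia6 were also lower in all 3 WT HFCF livers than in all 3 WT chow livers, but their log2 fold changes of -0.35 ± 0.11 (edgeR adjusted p = 0.0502) and -0.36 ± 0.12 (edgeR adjusted p = 0.0695) missed the threshold. The Pdia3 value passed with DESeq2 (adjusted p = 0.0303) and limma voom (adjusted p = 0.0424), and without KO chow replicate 1 (edgeR adjusted p = 0.0403) or WT HFCF replicate 3 (0.0226). Pdia6 passed in a fit of only those 2 groups (edgeR adjusted p = 0.0404) and without KO chow replicate 1 (0.0238) or WT HFCF replicate 3 (0.0496). Ppib, the prolyl isomerase cyclophilin B, stood at 138.2 ± 16.2 CPM in WT HFCF and 196.1 ± 5.51 CPM in KO HFCF livers (SD, n = 3), a difference of 0.51 ± 0.10 (edgeR adjusted p = 0.00337). Of the exon bases of Ppib in GENCODE M21, 25.0% overlap the gene Snx22 on the opposite strand, so with the counting strand not given in the sources used here its value is uncertain. GENCODE M21 gives Ppib 3305 exon bases and the deposited length is 960, so the overlap of the gene as counted is not known. P4hb, the most abundant of the 37 genes at a mean of 570.0 FPKM, and Txndc5 were called in no comparison. P4hb stood at 1374 to 1822 CPM and Txndc5 at 165.1 to 199.2 CPM over the 12 livers.

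**Figure D3:**
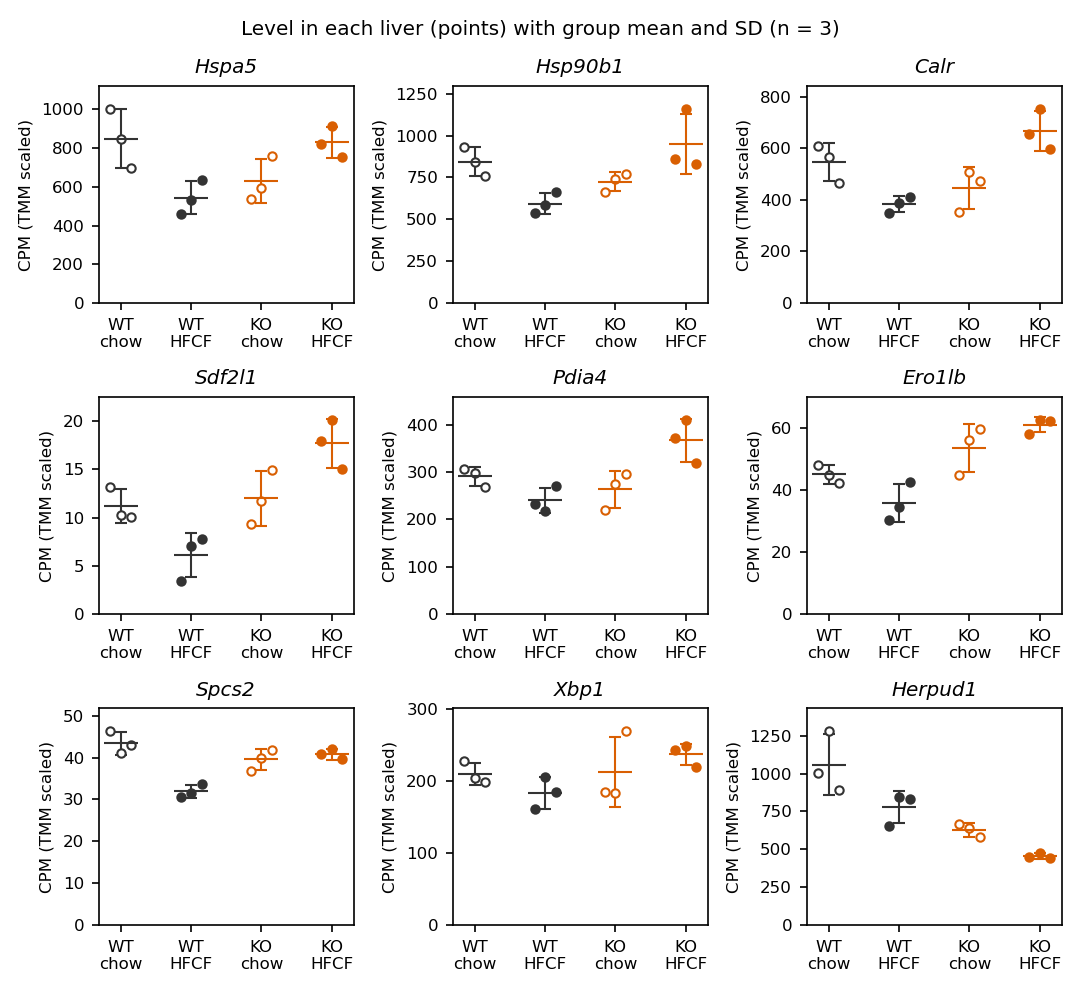
Level of 9 of the genes in every liver, in CPM, by group; points are livers, bars the mean and SD of 3, WT in grey and KO in orange, open points chow and filled points HFCF. For Hspa5, Hsp90b1, Calr and Sdf2l1 the WT HFCF livers lie lowest or share the lowest range, and Herpud1 is lowest in the KO HFCF livers.

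The sensors and factors of the UPR gave 0 calls among 3 genes in all 5 comparisons with edgeR, DESeq2 and limma voom. At an unadjusted p under 0.05, edgeR gave 1 fall with HFCF in WT and 1 higher value in KO on each diet. Xbp1, whose mRNA is spliced by IRE1 into its active form, stood at 227.3, 203.2 and 199 CPM in WT chow, 160.3, 204.6 and 184.6 CPM in WT HFCF, 184.3, 183.7 and 268.7 CPM in KO chow and 242.1, 248 and 219.7 CPM in KO HFCF livers. Counts per gene do not show how much of the Xbp1 mRNA was spliced. On HFCF all KO livers lay above all WT livers for Xbp1, but the log2 fold change of 0.37 ± 0.14 did not pass (edgeR adjusted p = 0.0762), although it did in a fit of only those 2 groups (edgeR adjusted p = 0.0479) and without KO chow replicate 3 (0.0167). Atf6 stood at 130.9 ± 4.42 CPM in WT chow, 112.6 ± 10.7 CPM in WT HFCF, 130.4 ± 5.98 CPM in KO chow and 117.6 ± 7.71 CPM in KO HFCF livers (SD, n = 3). Its WT diet groups did not overlap, at a log2 fold change of -0.22 ± 0.08 that was not called (edgeR adjusted p = 0.0895) except without WT HFCF replicate 3 (-0.30, edgeR adjusted p = 0.0253).

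Ern1, which encodes IRE1, stood at 40.7, 40.7 and 39.6 CPM in WT chow, 27.9, 45.4 and 42.6 CPM in WT HFCF, 51.4, 45.1 and 63.5 CPM in KO chow and 38.8, 45 and 49.2 CPM in KO HFCF livers. On chow the KO livers lay above the WT livers, by 0.40 ± 0.16 on the log2 scale (edgeR adjusted p = 0.105). That difference passed in a fit of only the chow groups (edgeR adjusted p = 0.0397) and without WT HFCF replicate 1 (0.027), a library outside the comparison that enters through the shared estimate of spread. Other UPR transducers and the proteases that activate them formed a list of 10 tested genes. Of these, Mbtps2, a protease that cuts ATF6, was 0.30 ± 0.10 higher in KO than in WT on HFCF (edgeR adjusted p = 0.047), and the transducer Creb3 was lower in KO on chow, at -0.30 ± 0.09 (edgeR adjusted p = 0.0345).

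Herpud1 encodes a membrane protein that gathers the ERAD machinery around the ubiquitin ligase HRD1. It lies on chromosome 8 at 94386438 to 94395377 on the plus strand. Its levels were 1003, 1280 and 895.2 CPM in WT chow and 656, 846.2 and 829.4 CPM in WT HFCF livers. KO livers held 670, 641.7 and 579.8 CPM on chow and 449.4, 476.5 and 441.2 CPM on HFCF. The 3 WT chow livers were the highest and the 3 KO HFCF livers the lowest, and the diets did not overlap in either genotype.

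Herpud1 was lower in KO than in WT on each diet, with a log2 fold change of -0.75 ± 0.13 for chow (edgeR adjusted p = 0.00213) and -0.77 ± 0.13 for HFCF (edgeR adjusted p = 0.00113). Both calls held without each library in turn and under all other settings tried. With HFCF it was -0.45 ± 0.13 in WT (edgeR adjusted p = 0.0354) and -0.47 ± 0.13 in KO (edgeR adjusted p = 0.0684), and the interaction was -0.02 ± 0.18 (edgeR adjusted p = 0.979). The WT diet call was lost in a fit of only those 2 groups (edgeR adjusted p = 0.0949), without WT chow replicate 1 (0.0679) or 2 (0.17), WT HFCF replicate 1 (0.125) and KO HFCF replicate 2 (0.0508) or 3 (0.0534). The KO value passed with DESeq2 (adjusted p = 0.0129), in a fit of only the KO groups (edgeR adjusted p = 0.0168), and without WT chow replicate 2 (0.0367) or WT HFCF replicate 1 (0.0328). The 250 bases upstream of Herpud1 (GRCm38.p6, chr8:94386179-94386428, plus strand) are shown because it was the only gene of the 37 called lower in KO than in WT on HFCF and the only matched one with an ERSE-II, marked in capitals.
Herpud1 upstream: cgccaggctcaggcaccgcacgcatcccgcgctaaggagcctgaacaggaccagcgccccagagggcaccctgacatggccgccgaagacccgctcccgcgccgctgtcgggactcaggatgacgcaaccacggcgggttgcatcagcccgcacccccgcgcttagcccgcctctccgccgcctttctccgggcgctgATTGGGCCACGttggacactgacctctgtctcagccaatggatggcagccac

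The other ERAD genes were mostly not called. Derl3, a derlin of the channel through which misfolded proteins leave the ER, was the least abundant of the 37 genes, at 13 to 63 counts per library. It measured 0.93, 2.34 and 1.31 CPM in WT chow, 0.91, 2.09 and 2.0 CPM in WT HFCF, 2.71, 3.45 and 3.34 CPM in KO chow and 3.71, 4.41 and 3.21 CPM in KO HFCF livers. All 6 KO livers lay above all 6 WT livers. Derl3 was 1.04 ± 0.32 higher in KO on chow (edgeR adjusted p = 0.0433) and 1.19 ± 0.31 higher on HFCF (edgeR adjusted p = 0.0156) on the log2 scale. The call on HFCF was lost without WT HFCF replicate 1 (edgeR adjusted p = 0.0514) or KO HFCF replicate 2 (0.0688). The call on chow was lost without WT chow replicate 1 (0.148) or 3 (0.145), each KO chow liver (0.0591, 0.114 and 0.0978) or each KO HFCF liver (0.0619, 0.051 and 0.0526).

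Derl3 is also abundant in antibody-secreting plasma cells, and markers of B and plasma cells differed between genotypes in these livers. Of 16 such markers 10 were in the table. In KO 9 of the 10 were higher on chow (9.72% of all tested genes) and 6 on HFCF (10.6%). Their summed level was 288.8 to 357.6 CPM of all counts in WT chow, 207.1 to 230.8 in WT HFCF, 715.1 to 790.7 in KO chow and 502.5 to 524.3 in KO HFCF livers. Sdc1, the most abundant of them at 206.2 to 317 CPM as group means, is also made by hepatocytes. The immunoglobulin light chain gene Igkc stood at 1.55 ± 0.21 CPM in WT chow and 289.3 ± 38.0 CPM in KO chow livers (SD, n = 3). None of the 10 matched markers was at 0 in every library of a group. Igkc fell by 1.06 ± 0.11 on the log2 scale with HFCF in KO (edgeR adjusted p = 0.000181), while Derl3 differed by 0.25 ± 0.28 there (edgeR adjusted p = 0.699). The part of these cells in the levels of Derl3 or of any other of the 37 genes was not tested.

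Among the 6 other ERAD genes, Edem1 and Edem2 trim mannose from misfolded glycoproteins, Derl1 and Derl2 are derlins, and Syvn1 and Sel1l form the HRD1 ubiquitin ligase. None was called in any comparison. Syvn1 stood at 19.4 ± 3.90 CPM in WT chow and 13.6 ± 3.09 CPM in WT HFCF livers (SD, n = 3), and its diet difference of -0.51 ± 0.17 on the log2 scale (edgeR adjusted p = 0.0588) passed with DESeq2 (adjusted p = 0.0407). That of Syvn1 also passed when WT chow replicate 3 (edgeR adjusted p = 0.0236) or WT HFCF replicate 3 (0.0168) was left out. Edem1 had positive values in all 4 comparisons between groups, from 0.16 ± 0.09 for the genotype on chow to 0.24 ± 0.09 for the diet in KO. Sel1l stood at 198 ± 11.0 CPM in WT HFCF and 224 ± 3.21 CPM in KO HFCF livers (SD, n = 3), groups that did not overlap and differed by 0.18 ± 0.08 (edgeR adjusted p = 0.147).

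Of the 7 genes of protein entry and signal peptide removal, 4 fell with HFCF in WT (5.9% of all tested genes fell). On HFCF 2 of the 7 were higher in KO than in WT (10.6% of all tested genes). Spcs2, a subunit of signal peptidase, stood at 46.3, 41 and 42.9 CPM in WT chow and at 30.7, 31.6 and 33.7 CPM in WT HFCF livers. KO livers held 36.9, 39.9 and 41.9 CPM on chow and 40.8, 42.1 and 39.6 CPM on HFCF. The 3 WT HFCF livers were the lowest of the 12. Spcs2 fell by 0.44 ± 0.08 on the log2 scale (edgeR adjusted p = 0.00217) and was 0.35 ± 0.08 higher in KO on HFCF (edgeR adjusted p = 0.00533). Both calls held without each library in turn.

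Sec61a1, the pore-forming subunit of the channel, stood at 180.1, 173.7 and 168 CPM in WT chow and at 127, 144.2 and 131.2 CPM in WT HFCF livers, with no overlap, and fell by 0.38 ± 0.08 (edgeR adjusted p = 0.00793). That call held without each library in turn. Sec61a1 was 0.28 ± 0.08 higher in KO than in WT on HFCF (edgeR adjusted p = 0.0235). This call was lost in a fit of only those 2 groups (edgeR adjusted p = 0.051), without WT HFCF replicate 1 (0.0717) or 3 (0.0623) and without each KO HFCF liver (0.0721, 0.0688 and 0.105). Sec61b, a small subunit of the same channel, was not called in any comparison, and its log2 fold change with HFCF in WT was 0.02 ± 0.13 (edgeR adjusted p = 0.95), at 10.4 to 15.2 CPM over the 12 livers.

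Ssr1, Ssr2 and Ssr3 encode subunits of the translocon-associated protein complex beside the channel. Ssr1 fell by 0.30 ± 0.08 on the log2 scale with HFCF in WT (edgeR adjusted p = 0.0255) and Ssr2 by 0.29 ± 0.07 (edgeR adjusted p = 0.019). Ssr1 stood at 115.2, 98.6 and 111.3 CPM in WT chow and 84.9, 84.8 and 94.3 CPM in WT HFCF livers. Ssr2 stood at 57, 59.7 and 62.8 CPM in WT chow and 49.3, 50.1 and 47.5 CPM in WT HFCF livers. Neither gene's groups overlapped. The Ssr1 call was lost in a fit of only those 2 groups (edgeR adjusted p = 0.062), without WT chow replicate 1 (0.129) or 3 (0.0952) and without WT HFCF replicate 1 (0.0817) or 2 (0.0876). The Ssr2 call was lost without WT chow replicate 2 (0.0606) or 3 (0.0848). Ssr3, at 246.7 ± 4.02 CPM in WT chow and 218.6 ± 15.5 CPM in WT HFCF livers (SD, n = 3), was not called (-0.17 ± 0.08, edgeR adjusted p = 0.149). Sec11c, a catalytic subunit of signal peptidase, and Sec24d, the cargo adaptor of the COPII coat, were called in no comparison and stood at 21.4 to 30.1 CPM and 79.8 to 98.8 CPM over the 12 livers.

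The estimated diet effect on many of these genes differed in sign between the genotypes, although with the diet in KO edgeR called only Calr. With HFCF, 22 of the 37 (59.5%) had lower values in WT and higher values in KO, against 18% of all tested genes. Some of these KO values were smaller than their standard error, such as Derl2 (0.01 ± 0.08) and Sec61a1 (0.05 ± 0.08), so their sign is not settled. Another 11 were lower in both genotypes, 4 were higher in both, and 0 were higher in WT and lower in KO. The diet comparisons in WT and in KO share no livers. The difference between them was tested as the genotype by diet interaction, which was positive in 33 of the 37 and in 49.9% of all tested genes. It was called for 4 genes, all positive, where 0.794% of all tested genes were called and 0.373% in that direction.

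These 4 were Calr (1.10 ± 0.20, edgeR adjusted p = 0.0341), Hspa5 (1.04 ± 0.22, edgeR adjusted p = 0.0497), Hsp90b1 (0.90 ± 0.18, edgeR adjusted p = 0.0457) and Dnajb11 (0.70 ± 0.15, edgeR adjusted p = 0.0481), as log2 differences of the diet effect in KO minus that in WT. All lay near the threshold, and most were lost with fewer livers. The call of Hspa5 held without WT HFCF replicate 3 alone and that of Hsp90b1 and of Dnajb11 likewise, with edgeR adjusted p up to 0.133 for Hspa5, 0.115 for Hsp90b1 and 0.122 for Dnajb11 without another library. Calr kept its call without WT chow replicate 3, KO chow replicate 2, WT HFCF replicate 1 or WT HFCF replicate 3, and reached an edgeR adjusted p of 0.0863 without WT chow replicate 1. Next in order were Spcs2 (0.48 ± 0.11, edgeR adjusted p = 0.0539), Manf (1.11 ± 0.24, edgeR adjusted p = 0.0539) and Pdia3 (0.72 ± 0.16, edgeR adjusted p = 0.0541), which did not pass. At an unadjusted p under 0.05, 20 of the 37 were positive and 0 negative, with the share over all tested genes not counted. With DESeq2 12 of the 37 passed, and without the filter on low counts 2 did, with Hspa5 at an edgeR adjusted p of 0.0503 and Dnajb11 at 0.0501. Under RLE scaling the Hspa5 call was lost as well (edgeR adjusted p = 0.0503).

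**Figure D4:**
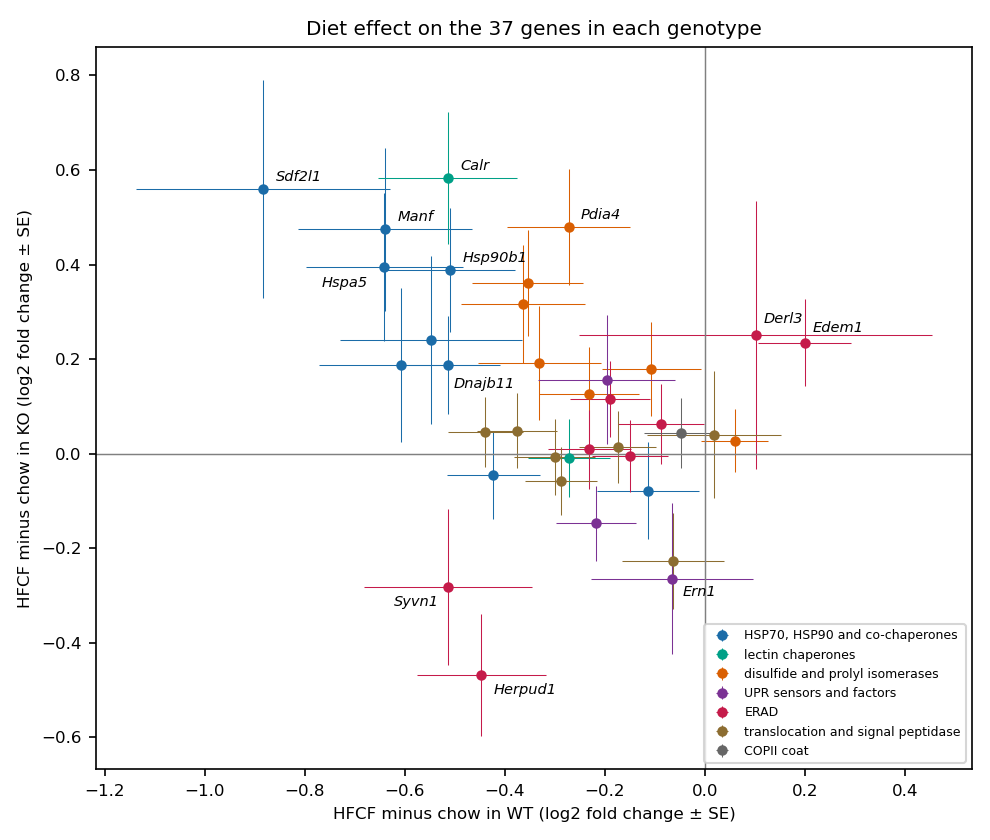
Log2 fold change with HFCF in WT (horizontal) and in KO (vertical) for the 37 genes, with standard errors, colored by role. The upper left part, lower in WT and higher in KO, holds 22 of the 37 genes, and Herpud1 lies at -0.45 and -0.47 in the lower left.

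**Figure D5:**
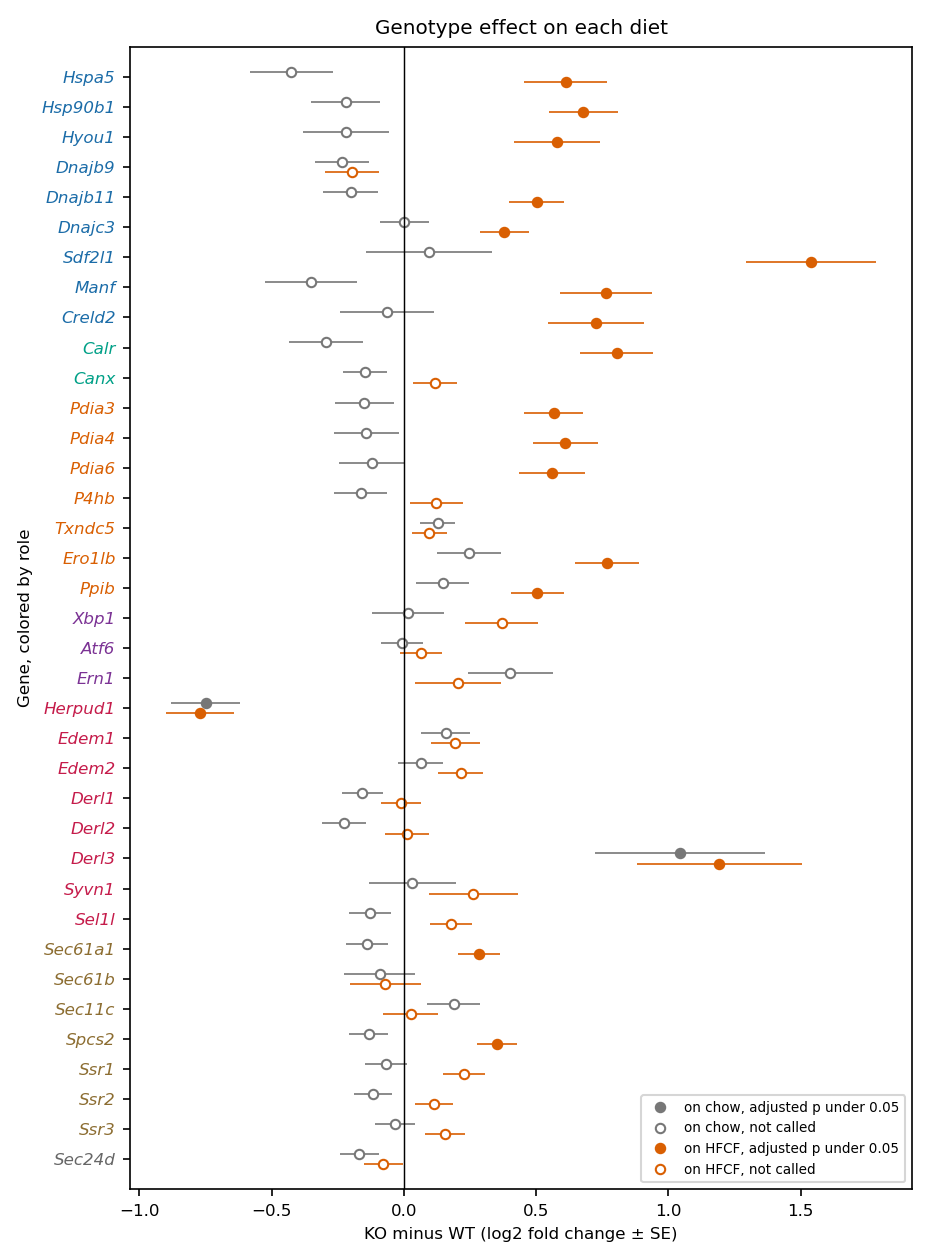
Log2 fold change of KO against WT on chow (grey) and on HFCF (orange) for the 37 genes, with standard errors; filled points have an edgeR adjusted p under 0.05. On chow only Derl3 and Herpud1 are filled, and on HFCF 17 genes are filled to the right of 0 and Herpud1 to the left.

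The genes with an ERSE and those without one were set side by side over the 30 matched promoters. Most genes with an ERSE are chaperones, isomerases or oxidases, so element and role cannot be told apart here. With HFCF in WT, 5 of 10 genes with an ERSE fell (median log2 fold change -0.47) and 5 of 20 without one fell (median -0.19). Of all tested genes, 5.9% fell. On HFCF, 8 of 10 with an ERSE were higher in KO (median 0.64), and of 20 without one 6 were higher and 1 was lower (median 0.20). Of all tested genes, 10.6% were higher and 8.52% lower there. The interaction was called in 3 of 10 and in 1 of 20 (0.794% of all tested genes). Sdf2l1, the gene of the 37 with the largest difference on HFCF, has no exact ERSE in its 250 bases, and Syvn1 and Canx have one but were not called on HFCF. Of the tested genes with a matched promoter, 17 of 10771 (0.158%) carried an ERSE, 7 of them outside the 37. Of these 7, 1 fell with HFCF in WT and 1 was higher in KO on HFCF, both of them Hnrnpa3 (-0.50 ± 0.15, edgeR adjusted p = 0.0379, and 0.66 ± 0.15, edgeR adjusted p = 0.00632). The median interaction of the 7 was -0.36, against 0.60 for the 10 with an ERSE among the 37. The part of the ERSE in these differences was not tested.

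Other genes of the same pathways were taken from longer lists. The share of all tested genes called was 5.9% down and 7.76% up with HFCF in WT, and 10.6% higher and 8.52% lower in KO on HFCF, and the counts of several lists lie near it. Of 33 other folding and oxidation enzymes tested, 3 fell and 1 rose with HFCF in WT, and 8 were higher and 1 lower in KO than in WT on HFCF. Pdia5, a further disulfide isomerase, stood at 34.4 ± 2.28 CPM in WT chow, 20.1 ± 4.42 CPM in WT HFCF and 46.9 ± 2.27 CPM in KO HFCF livers (SD, n = 3), and its interaction was called (1.17 ± 0.24, edgeR adjusted p = 0.0457). Qsox1, a sulfhydryl oxidase, was 0.84 ± 0.11 higher in KO on HFCF (edgeR adjusted p = 0.000149). Of 21 genes of N-glycosylation and sugar trimming, 6 fell and 2 rose with HFCF in WT, and 5 were higher and 1 lower in KO on HFCF. Rpn1, a subunit of the oligosaccharyltransferase, fell by 0.56 ± 0.09 in WT (edgeR adjusted p = 0.00116), was 0.52 ± 0.09 higher in KO on HFCF (edgeR adjusted p = 0.00106) and was called for the interaction (0.63 ± 0.12, edgeR adjusted p = 0.0404).

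With HFCF in WT, 2 of 23 other ERAD genes, 2 of 19 other translocation genes and 4 of 32 COPII and cargo receptor genes fell and 0 rose, as 5.9% of all tested genes fell. On HFCF, 1 ERAD gene was higher and 1 lower in KO, 4 translocation genes were higher, and 3 COPII and cargo receptor genes were higher and 3 lower. Among the 4 translocation genes is Srprb, with 69.6% of its exon bases shared with the abundant Trf on the same strand. Mean counts were 267487 for this Srprb entry and 290915 for Trf. On HFCF their log2 fold changes in KO were 0.64 ± 0.09 and 0.65 ± 0.09, so the call cannot be credited to Srprb. Another Srprb entry, with a mean count of 306, was not called. In the PERK and ATF4 arm of the UPR, 2 of 14 genes rose and 2 fell with HFCF in WT. Asns, the asparagine synthetase induced by ATF4, fell by 5.03 ± 0.46 on the log2 scale in WT (edgeR adjusted p = 2.4e-05), from 29.2 ± 9.64 to 0.877 ± 0.372 CPM (SD, n = 3). On HFCF, 3 of the 14 were higher in KO and 2 lower. Asns stood at 24.0 ± 8.87 CPM in KO HFCF livers (SD, n = 3), 4.74 ± 0.47 above WT on the log2 scale (edgeR adjusted p = 1.85e-05), and was called for the interaction (4.08 ± 0.58, edgeR adjusted p = 0.0136). The stress-induced Sesn2 was higher by 0.63 ± 0.15 (edgeR adjusted p = 0.00907) and the transcription factor gene Atf5 by 0.52 ± 0.12 (edgeR adjusted p = 0.00749). The 2 that were lower in KO than in WT on HFCF were Vldlr, at -2.53 ± 0.30 (edgeR adjusted p = 8.12e-05), and Ddit3, at -0.49 ± 0.16 (edgeR adjusted p = 0.0417). Ddit3 encodes the cell death factor CHOP. On chow Sesn2 was higher in KO as well (0.54 ± 0.15, edgeR adjusted p = 0.0305) and Vldlr lower (-2.03 ± 0.33, edgeR adjusted p = 0.00137). Of 20 cytosolic heat shock genes, 2 were higher in KO on HFCF, Hsp90aa1 and Hspa4l, a share near the 10.6% of all tested genes.

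Of 12 hepatocyte markers 10 were in the table. With HFCF in WT 2 of them, Serpina1a and Hnf4a, fell (5.9% of all tested genes). On HFCF 5 of them were higher and 2 lower in KO than in WT (10.6% and 8.52% of all tested genes). Their summed level was 56713 to 57736 CPM of all counts in WT chow, 50769 to 55971 in WT HFCF, 57476 to 63485 in KO chow and 59697 to 66077 in KO HFCF livers. For Trf, the most abundant of them, the means were 15726, 15748, 20184 and 23644 CPM in the same order. Trf itself was called higher in KO on each diet, so the sum is not a measure of hepatocyte content alone. The 37 genes together took 0.917% ± 0.0703 of all counts in WT chow, 0.755% ± 0.0493 in WT HFCF, 0.821% ± 0.0679 in KO chow and 0.88% ± 0.069 in KO HFCF livers (SD, n = 3). Of 15 clock genes, 5 rose and 2 fell with HFCF in WT (7.76% and 5.9% of all tested genes), with Arntl at -2.14 ± 0.28 (edgeR adjusted p = 0.000351). On chow, 1 clock gene was higher and 3 lower in KO (9.72% and 5.82% of all tested genes), with Arntl at -1.40 ± 0.26 (edgeR adjusted p = 0.00345). The clock genes gave 1 call with the diet in KO (2.65% of all tested genes). For the genotype on HFCF they gave 3, all 3 lower (8.52% of all tested genes). The hour at which livers were taken is not in the labels.

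Markers of some other liver cells also differed between the groups. Of all tested genes, 7.76% rose and 5.9% fell with HFCF in WT, and 1.47% rose with it in KO. Between genotypes, 9.72% were higher in KO on chow, and 10.6% were higher and 8.52% lower on HFCF. The cholangiocyte and endothelial counts below lie near these shares. Of 11 stellate cell and fibroblast markers, 6 rose and 0 fell with HFCF in WT, 6 were higher in KO on chow and 1 on HFCF. Their summed level was 531.8 to 652.8 CPM in WT chow, 765.6 to 906.9 in WT HFCF, 800.9 to 841.5 in KO chow and 670.1 to 881.1 in KO HFCF livers. Of 13 macrophage markers in the table, of 14 listed, 3 rose with HFCF in WT and 1 in KO, and 8 were higher in KO on chow and 7 on HFCF. Their sum was 373.2 to 430.9 CPM in WT chow, 365.5 to 767.9 in WT HFCF, 640.9 to 700.8 in KO chow and 821.8 to 874.8 in KO HFCF livers. Of 6 cholangiocyte markers in the table, of 9 listed, 1 rose with HFCF in WT and 1 was higher in KO on chow. They summed to 33.1 to 47.4 CPM in WT chow, 54.7 to 98.4 in WT HFCF, 61.6 to 99.0 in KO chow and 51.7 to 72.3 in KO HFCF livers. Of 11 endothelial markers, 1 was higher and 1 lower in KO on HFCF and 0 were called by edgeR in each of the 4 other comparisons. At an unadjusted p under 0.05, 4 endothelial markers were higher in KO on chow and 3 lower with HFCF in KO. The endothelial sums ran from 766.2 to 967.5 CPM over the 12 livers. None of the matched markers of these 4 cell types was at 0 in every library of a group. The part of these cells, of hepatocyte content and of the clock in the levels of the 37 genes was not tested.

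Livers of one group differed from one another across many of these genes at once. WT HFCF replicate 1 was the lowest of its group in 24 of the 37, and in 15 of the 18 chaperone, lectin and isomerase genes. KO chow replicate 1 was the lowest in 28, and KO HFCF replicate 2 the highest in 25. Within WT chow, replicate 1 was the highest in 26 and replicate 3 the lowest in 24. The median of the 18 folding genes, in log2 units from the WT chow mean, was -0.58, -0.43 and -0.25 in the WT HFCF livers. It was -0.32, -0.09 and 0.01 in the KO chow livers and 0.12, 0.29 and 0.04 in those of KO HFCF, so the 3 WT HFCF livers did not overlap with the KO HFCF livers and overlapped with the KO chow livers. The median over all genes lay within 0.02 of 0 in each of the 12 libraries. TMM scaling aims at this, so the median cannot show whether a general shift was present.

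Levels between genes can be compared per length. In FPKM averaged over the 12 libraries, P4hb stood highest of the 37 at 570.0, in place 112 among all genes of the table, followed by Herpud1 at 313.1, Hspa5 at 202.4, Hsp90b1 at 192.5 and Calr at 176.6. The lowest was Derl3 at 1.89. The genes with the highest FPKM were thus an isomerase that was not called in any comparison and an ERAD gene that was lower in KO, followed by 3 chaperones that were called for the interaction.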

How the data were processed

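The 12 mouse livers were flash frozen, and total RNA depleted of ribosomal RNA was sequenced from strand-specific libraries, per the labels' protocols. Each value used in a test is a whole-number read count for 1 gene in 1 library, as deposited by the authors. FPKM columns stand beside the counts in the deposited table, and each value equals its count over gene length and library total. Gene lengths are given there in bases. The submitters' processing notes name the build mm10. Aligner, counting tool, counting strand and annotation release are not given in the sources used here. Gene starts in the table are counted from 0 and are printed here counted from 1, the start that GENCODE M21 gives for 10546 of 15063 genes found in it.

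Genes were kept by filterByExpr (minimum count 10, minimum total 15), which removed 1110 of 15846, all of them outside the 37. Counts were scaled with TMM and fitted with edgeR 4.0.16 (glmQLFit, glmQLFTest, R 4.3.3) with 4 group means, and p-values were adjusted over all 14736 genes with Benjamini-Hochberg. The fit was repeated with RLE or upper quartile scaling, unfiltered, at a filter of 1 CPM in 6 libraries, with DESeq2 1.42.0 or limma voom (3.58.1), with the replicate number as a block, on only the groups compared, and leaving out each library. The scripts were tested on simulated data. Figures used Python 3.11.15, pandas 2.3.3 and matplotlib 3.10.9. FPKM values served only to compare levels between genes.

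The 37 genes and the other gene lists were chosen with earlier results of these data known. Every one of the 37 could be named. From each other list up to 4 tested genes with the lowest adjusted p in a comparison could be named, and the most abundant gene of each marker list, and the examples printed were picked from these after their values were seen. Exons of 10 of the 37 share bases with another gene of the table in GENCODE M21, by at most 12.8% of exon bases (Ssr2) except for Ppib. Promoters were matched by symbol or a unique synonym, and where RefSeq lists several, the one nearest to the gene's edge in the table was used.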

Additional observations from a re-analysis of the deposited data

Results flagged for a closer look

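For 4 genes the effect of HFCF differed between genotypes in a test of the difference itself, edgeR's genotype by diet interaction over all 14736 genes. As log2 differences of the effect in KO minus that in WT, these were 1.1 for Calr (edgeR adjusted p = 0.0341), 1.04 for Hspa5 (0.0497), 0.9 for Hsp90b1 (0.0457) and 0.7 for Dnajb11 (0.0481). With 1 of the 12 libraries left out, the call was lost in 11 of 12 cases for Hspa5, Hsp90b1 and Dnajb11 each and in 8 of 12 for Calr. Hspa5 also lost it under RLE scaling (edgeR adjusted p = 0.0503), without the filter (0.0503) and with the replicate block (0.068), Hsp90b1 with that block (0.0539) and Dnajb11 without the filter (0.0501). In each of these genes all 3 WT HFCF livers lay below all 3 WT chow livers. In KO, the HFCF livers lay above the chow livers for Calr and Hsp90b1 and overlapped with them for Hspa5 and Dnajb11.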

How the results depend on the processing

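With single libraries left out, the number of the 37 genes called ranged from 5 to 20 for HFCF in WT, 0 to 3 for HFCF in KO, 1 to 3 for KO on chow, 12 to 19 for KO on HFCF and 0 to 8 for the interaction. Over all genes the ranges were 1100 to 2264, 157 to 776, 1152 to 2788, 2042 to 2834 and 11 to 136. For HFCF in KO, DESeq2 called 4 of the 37 (656 of all genes), limma voom 2, and a fit of only those groups 2 (603 of all genes). For KO on chow, a fit of only those groups called 4. For the interaction, DESeq2 called 12 (344 of all genes) and the fit without a filter 2. The cause of these differences was not tested. None of the calls reversed in any alternative, and changes of sign were limited to values that were not called, at most 0.149 on the log2 scale. The median of the 37 kept its sign without each library, at -0.33 to -0.23, 0.02 to 0.13, -0.17 to -0.03, 0.23 to 0.34 and 0.24 to 0.35 in the same order. Scaling by RLE or upper quartile left the median of all genes within 0.04 of 0, which such scaling aims at.

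With the replicate number as a block, 2 of the 37 were called for the interaction. The Canx fall in WT was lost under this block (edgeR adjusted p = 0.0648), as were the interactions of Hspa5 (0.068) and Hsp90b1 (0.0539). Correlations of same-numbered livers ran from -0.148 to 0.167 and did not all exceed 0.1 in any comparison, so the numbers were not taken to pair the livers; in the WT diet comparison each liver correlated best with its own number.

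With 3 livers a group, genes with few counts such as Derl3 and Sdf2l1 have the widest errors of the 37, and a gene that missed the threshold is not shown to be unchanged.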
